A study of Mus musculus with 17 samples.

Results

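The comparison described here sets synovial macrophages that carry MHC class II and CD11c (MHCII+CD11c+) against synovial macrophages that carry MHC class II without CD11c (MHCII+CD11c-), both from control mice. Its members were chosen by sample title and not by any measured value. They are 3 MHCII+CD11c+ and 3 MHCII+CD11c- libraries, together 6 of the 17 libraries of the series. All genes that passed a filter on low counts were compared. The study asked how macrophages around the vessels of the synovium, the membrane that lines joints, meet material that arrives with the blood. Macrophages were sorted from synovium as LYVE1+CX3CR1+, MHCII+CD11c- or MHCII+CD11c+ cells and their total RNA was sequenced as bulk libraries. Mice were untreated controls or had been given immune complexes (IC), that is antigen held by antibody, by vein 8 h earlier.

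Every mouse carried a knockout of Fcgr2b, the inhibitory Fc receptor for IgG, and this holds for the controls too. The controls were therefore untreated Fcgr2b-KO mice, and no wild-type library was analysed here. By the study's methods, mice of both sexes were used, synovium was digested with type I collagenase before sorting, and cells were incubated with anti-CD16/CD32 before staining. The labels do not say whether a library of these Fcgr2b-KO mice held cells of 1 mouse or of several, so p-values measure the spread between libraries. That spread was estimated within groups over all 17 libraries of the series, not over the 6 compared libraries alone. Each library is the RNA of a sorted population, and fewer cells of a type within a gate cannot be told apart from less RNA per cell.

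CD11c is the product of Itgax, an alpha integrin chain that pairs with the beta chain Itgb2 and is found on dendritic cells and on many tissue macrophages. MHC class II molecules present peptides to CD4 T cells, and the peptides are loaded in endosomes with the help of the H2-DM chaperone. Maf is a transcription factor of mature macrophages, and Csf1r is the receptor for the growth factor CSF1 on which macrophages depend.

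Totals lay between 2549315 and 5804056 counts in the 6 libraries, with 13888 to 19403 genes detected. Levels are given as CPM, the counts of a gene scaled to the library total with TMM factors, always in the order of libraries 1, 2 and 3. A count of 3 in a library, taken as the floor of detection, was worth 0.5302 to 1.135 CPM. Libraries numbered 2 stood apart in both subsets. On the scale of log2(CPM + 1), 23 genes lay over 8-fold above libraries 1 and 3 in library 2 of both subsets at once. The same joint count was 0 for library 1 and 0 for library 3. Arg1, the arginase of alternatively activated macrophages, was at 2.13, 1500.2 and 0 CPM in MHCII+CD11c+ and at 2.13, 1979 and 12.4 CPM in MHCII+CD11c- libraries. Slc7a2, which carries arginine into the cell, was at 0.851, 1870.0 and 0 CPM in MHCII+CD11c+ and at 2.77, 2174 and 4.68 CPM in MHCII+CD11c- libraries. Flt1, a receptor for VEGF, was at 31.9, 610.0 and 26.5 CPM in MHCII+CD11c+ and at 7.25, 426 and 2.01 CPM in MHCII+CD11c- libraries. For Arg1, the same number was also high in the LYVE1+CX3CR1+ controls, at 1.57, 552 and 8.09 CPM. The joint count of genes was made in the MHCII+ subsets only. None of the 23 genes was called between the subsets. Arg1 and Slc7a2 were chosen after their values were seen. Since these libraries stood apart, counts of genes are also given without both of them.

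**Figure D1:**
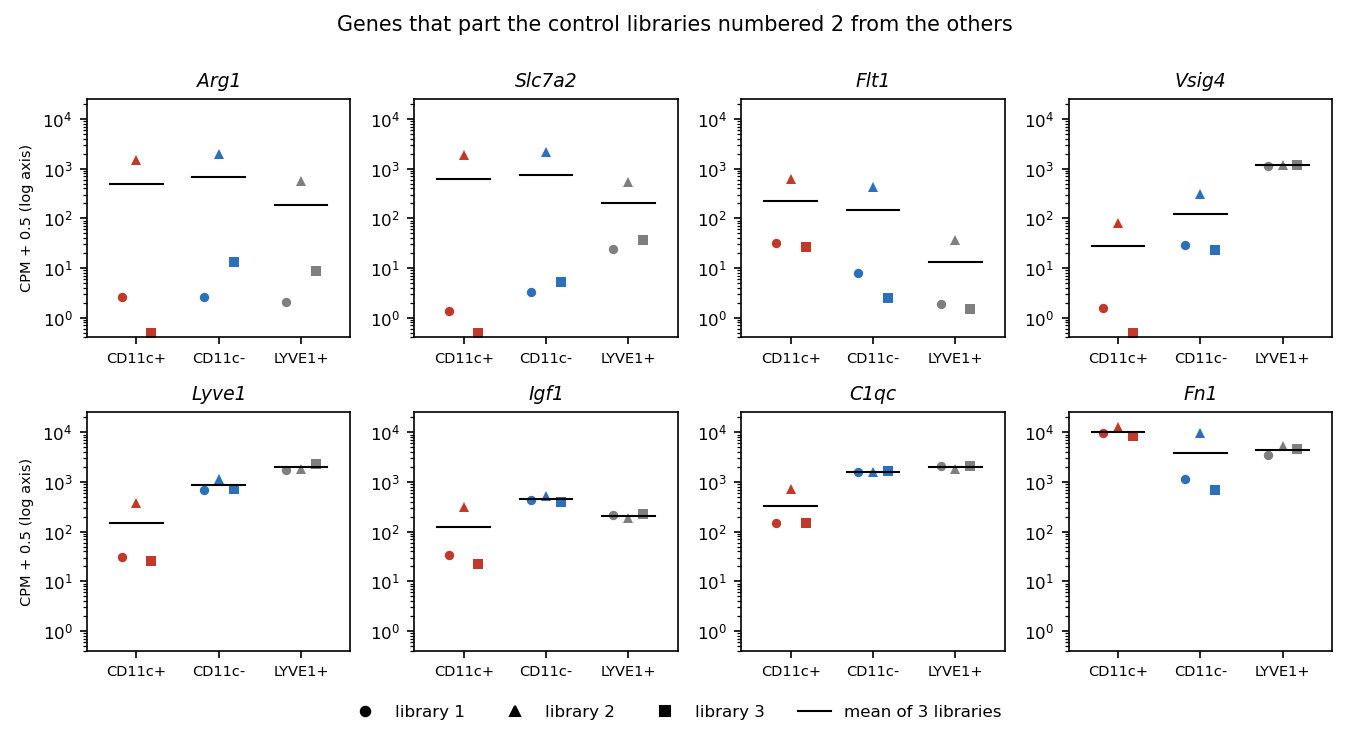
Level of 8 genes in each control library, as CPM + 0.5 on a log axis, for MHCII+CD11c+ (red), MHCII+CD11c- (blue) and LYVE1+CX3CR1+ (grey) macrophages; the marker shape gives the library number and the bar the mean of 3 libraries. Library 2 (triangles) stands above libraries 1 and 3 for Arg1, Slc7a2 and Flt1 in both MHCII+ subsets and for Arg1 in LYVE1+CX3CR1+ macrophages. It also does so for Lyve1, Igf1 and C1qc within MHCII+CD11c+ macrophages.

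The gene removed in these mice, Fcgr2b, still had counts in every library. It was at 248, 163 and 241 CPM in MHCII+CD11c+ and at 182, 107 and 126 CPM in MHCII+CD11c- libraries and was not called (adjusted p = 0.135). With no wild-type library, these counts do not check the genotype. Cd3d, a defining marker of T cells, was at 0, 0 and 0 CPM in MHCII+CD11c+ and 2.56, 1.24 and 0 CPM in MHCII+CD11c- libraries. Summed over the B and plasma cell list, levels ran from 45.5 to 103 CPM in MHCII+CD11c+ and 162 to 488 CPM in MHCII+CD11c- libraries. All 10 genes tested had a negative log2 fold change, with a median of -2.61, or -2.51 with genes at the floor set to their bound. Of them, edgeR called 1 and DESeq2 called 2. The gene called by edgeR was Ighm, at 48.3, 25.4 and 51.1 against 333, 115 and 269.8 CPM. The neutrophil list summed to 106 to 656 CPM in MHCII+CD11c+ and 53.8 to 430.0 CPM in MHCII+CD11c- libraries, with S100a9 at 142, 37.2 and 88.9 against 92.8, 34.8 and 0 CPM, and its 1 called gene was Csf3r (22.8, 10.6 and 12.5 against 62.1, 46.5 and 39.5 CPM). Csf3r was lower, whereas 10 of the 12 neutrophil genes tested had a positive log2 fold change, with a median of 1.12. Mast cell markers summed to 11 to 20 CPM in MHCII+CD11c+ and 5.48 to 19 CPM in MHCII+CD11c- libraries, with none of 7 called by edgeR or DESeq2. In the list for muscle, fat, cartilage, nerve and red cells, Mbp was higher (115, 79.3 and 121 against 53.3, 47.2 and 63.5 CPM) and Ckm lower (0, 0 and 0 against 4.27, 1.94 and 4.35 CPM). The fibroblast list summed to 272 to 719 CPM in MHCII+CD11c+ and 272 to 516 CPM in MHCII+CD11c- libraries, and none of its 13 genes tested was called by edgeR or by DESeq2. The endothelial and mural list summed to 44.6 to 950.3 CPM in MHCII+CD11c+ and 50.2 to 793 CPM in MHCII+CD11c- libraries, and Flt1 made up most of it in the libraries numbered 2. In the list of T, NK and innate lymphoid cell markers, Cd2 (79.8, 97.2 and 84.7 against 25.6, 18.7 and 22.1 CPM) and Il7r (37.2, 44 and 34.8 against 4.27, 4.06 and 0 CPM) were higher and Rora (4.25, 18.6 and 10.6 against 14.1, 35.9 and 41.8 CPM) was lower in MHCII+CD11c+ libraries. Leaving out 1 library ended the call of Cd2 without CD11c- library 3 (adjusted p = 0.055), of Rora without CD11c+ library 1 or 3 or CD11c- library 2 or 3 (adjusted p 0.105 to 0.208), of Ighm without CD11c+ library 1 or 2 or CD11c- library 1 or 3 (adjusted p 0.0566 to 0.0737), of Csf3r without CD11c- library 1 (adjusted p = 0.0644), of Mbp without CD11c+ library 1 or 3 (adjusted p 0.0537 to 0.0573) and of Ckm without CD11c+ library 1, 2 or 3 or CD11c- library 1 or 3 (adjusted p 0.0631 to 0.0873). Without both libraries numbered 2, Cd2, Csf3r and Ckm were not called (adjusted p = 0.0713, 0.0531 and 0.0803). On omission of 1 library, the log2 fold change shifted without CD11c+ library 2 to -2.08 for Rora. The part that these cells play in the results below was not tested.

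MHCII+CD11c+ and MHCII+CD11c- macrophages differed in 1323 of 15272 genes tested, or 8.66% (edgeR quasi-likelihood F test, Benjamini-Hochberg adjusted p under 0.05). Lists of genes by pathway or cell type are set beside these shares. Their members were chosen with earlier results of these data known, so counts of called members describe the lists and are not independent support. Some genes are members of several lists, so the counts of different lists overlap. Of the called genes, 561 were higher in MHCII+CD11c+ macrophages (3.67%) and 762 were lower (4.99%). Changes of more than 1 on the log2 scale were found for 357 of the higher and 583 of the lower genes, and of more than 2 for 130 and 263. In 1289 of the called genes the libraries of the subsets did not overlap, while 27.4% of all genes tested had no overlap. Of the lower genes, 34 had all MHCII+CD11c+ libraries at the floor, and of the higher genes, 19 had all MHCII+CD11c- libraries at the floor. The median log2 fold change over all genes tested was -0.0342. Without both libraries numbered 2, the count was 1505 (641 higher, 864 lower), with 1110 of the 1323 among them. Leaving out MHCII+CD11c- library 1 or 3 gave 803 and 785 genes, 343 and 302 of them higher and 460 and 483 lower, and leaving out MHCII+CD11c+ library 1 gave 369 higher genes.

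**Figure D2:**
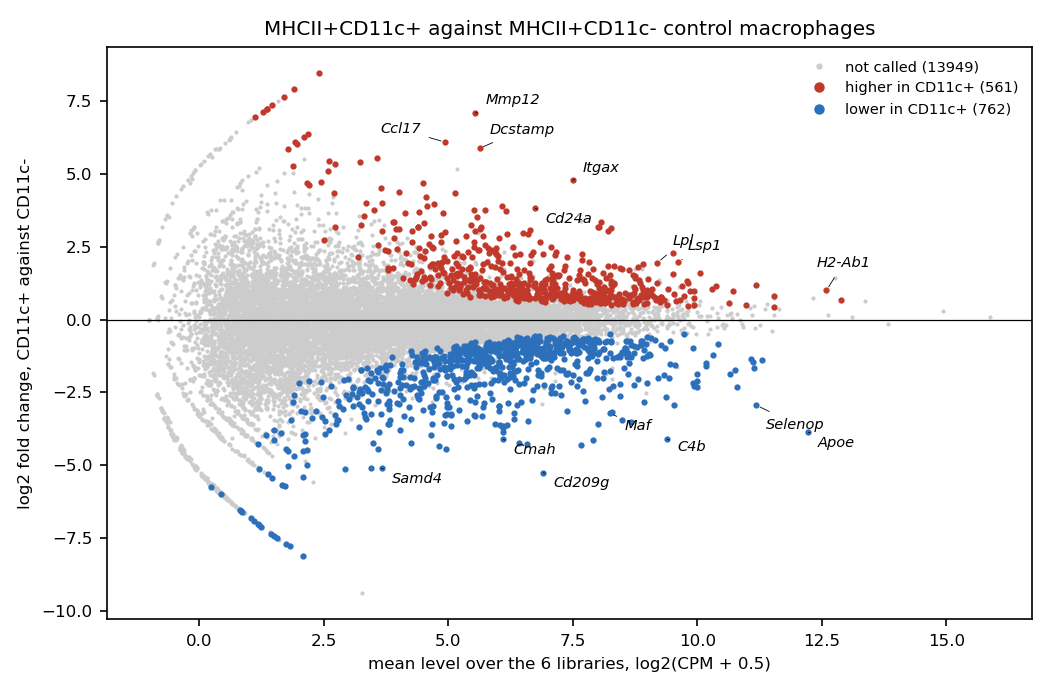
Mean level of each of 15272 genes over the 6 libraries, as log2(CPM + 0.5), against its log2 fold change between MHCII+CD11c+ and MHCII+CD11c- controls. Called genes, 561 higher (red) and 762 lower (blue), occur from low to high levels, with Itgax, Mmp12, Ccl17 and Dcstamp far above and Maf, Cmah, C4b and Cd209g far below.

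The sort was on the proteins of Itgax and of the I-A and I-E genes, so these genes check the gates. Itgax (chr7:128129547-128150657, plus strand) was at 335, 434 and 275 CPM in MHCII+CD11c+ libraries, at 14.1, 8.48 and 16 CPM in MHCII+CD11c- libraries and at 2.2, 0.541 and 1.53 CPM in LYVE1+CX3CR1+ libraries. It was 27.1-fold higher in MHCII+CD11c+ macrophages (log2 fold change 4.78 ± 0.47 SE, adjusted p = 9.61e-06). Of 12 MHC class II genes, 4 were higher and none (0 by edgeR, 0 by DESeq2) was lower, with a median log2 fold change of 0.91. H2-Ab1, the beta chain of I-A, was at 9804, 6076 and 8856 CPM against 3883, 4307 and 4158 CPM (log2 fold change 1.0 ± 0.27 SE, adjusted p = 0.0249), and at 19.4, 36.8 and 21.9 CPM in the LYVE1+CX3CR1+ controls. MHCII+CD11c- macrophages thus held these transcripts too, far above the LYVE1+CX3CR1+ level. H2-Eb1, the beta chain of I-E, was at 4472, 2747 and 4217 CPM against 2249, 1938 and 2285 CPM (log2 fold change 0.82 ± 0.19 SE, adjusted p = 0.0084). H2-DMb2, a chain of the peptide-loading chaperone, showed the widest gap of the list, at 109.8, 58.7 and 103 CPM against 18.1, 10.1 and 9.03 CPM (log2 fold change 2.85 ± 0.50 SE, adjusted p = 0.000797). H2-DMb1 was higher by 1.24 ± 0.33, while H2-Aa (0.73 ± 0.35, adjusted p = 0.249), the invariant chain Cd74 (0.62 ± 0.26, adjusted p = 0.174) and the class II transactivator Ciita (0.63 ± 0.34, adjusted p = 0.315) were not called. With 1 library omitted, significance was lost in the case of H2-Ab1 without CD11c+ library 1 or 3 or CD11c- library 1, 2 or 3 (adjusted p 0.0504 to 0.0962), of H2-DMb1 without CD11c+ library 1 or 3 or CD11c- library 1, 2 or 3 (adjusted p 0.0505 to 0.109) and of H2-Eb1 without CD11c+ library 1 or 3 (adjusted p 0.0522 to 0.058). By contrast, a call appeared in the case of Cd74 without CD11c+ library 2 (adjusted p = 0.0432).

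Core macrophage genes were often lower in MHCII+CD11c+ macrophages. Of 20 tested, 12 were lower and none (0 by edgeR, 1 by DESeq2) was higher, with a median of -1.17. Csf1r was at 706, 714 and 669.8 CPM in MHCII+CD11c+ and 3234, 1725 and 2694 CPM in MHCII+CD11c- libraries (log2 fold change -1.87 ± 0.19 SE, adjusted p = 9.49e-07). Every library of both subsets held this transcript. Adgre1, which encodes F4/80, was at 264, 425 and 272 against 682, 832 and 684 CPM (log2 fold change -1.19 ± 0.22 SE, adjusted p = 0.000928). Mertk, a receptor for apoptotic cells, was at 15.5, 55.5 and 19.7 against 123, 139.8 and 159.5 CPM (log2 fold change -2.20 ± 0.35 SE, adjusted p = 0.000439). Fcgr1, the high-affinity IgG receptor, was at 17, 19.9 and 0.756 against 132, 76 and 140.4 CPM (log2 fold change -3.13 ± 0.58 SE, adjusted p = 0.00437). Cd68, Lamp1 and the protease Ctsb fell by 0.74, 0.98 and 1.67 on the log2 scale. Lyz2 (0.16 ± 0.18, adjusted p = 0.691), Tyrobp (0.22 ± 0.18, adjusted p = 0.538) and the myeloid factor Spi1 (0.34 ± 0.18, adjusted p = 0.27) were not called. Without both libraries numbered 2, 14 of the 20 genes were lower and 1, the LPS co-receptor Cd14, was higher. By contrast, a call appeared in the case of Cd14 without CD11c- library 2 (adjusted p = 0.000576). Single libraries moved the log2 fold change, without CD11c+ library 2 to -3.01 for Mertk.

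Of the 34 lists described, resident and perivascular macrophage genes had the largest share of lower genes. All 22 tested had a negative log2 fold change, 18 were called lower and the median was -2.86. Maf (chr8:115682942-115707794, minus strand) was at 61.9, 63.5 and 51.4 CPM in MHCII+CD11c+ and 740.5, 319.5 and 579.8 CPM in MHCII+CD11c- libraries (log2 fold change -3.21 ± 0.22 SE, adjusted p = 2.8e-09), a 9.27-fold lower level. The LYVE1+CX3CR1+ controls held 654, 705 and 704 CPM. Cmah, which makes the sialic acid Neu5Gc, was at 4.89, 7.99 and 9.83 against 153, 91.4 and 143 CPM (log2 fold change -4.12 ± 0.29 SE, adjusted p = 2.8e-09). Selenop, a selenium carrier, was at 371, 740.1 and 500.3 against 4336, 3487 and 4558 CPM (log2 fold change -2.94 ± 0.21 SE, adjusted p = 2.8e-09). In each of these genes all MHCII+CD11c+ libraries lay below all MHCII+CD11c- and all LYVE1+CX3CR1+ libraries. Gas6, a bridge between dying cells and Mertk, was at 48.1, 97.9 and 49.9 against 952, 499 and 808 CPM (log2 fold change -3.52 ± 0.33 SE, adjusted p = 3e-06). Folr2, the folate receptor of resident macrophages, was at 5.96, 31.6 and 4.92 against 126, 87.5 and 129 CPM (log2 fold change -2.95 ± 0.56 SE, adjusted p = 0.00471). F13a1, the A subunit of coagulation factor XIII, was at 712, 429 and 671 against 3649.6, 1890.0 and 3401 CPM (log2 fold change -2.30 ± 0.23 SE, adjusted p = 1.98e-06). Timd4, a receptor for phosphatidylserine, was at 9.78, 11.9 and 12.5 against 80.4, 46.1 and 148 CPM (log2 fold change -3.0 ± 0.34 SE, adjusted p = 8.08e-06). Cd163, the receptor for haptoglobin-bound haemoglobin, fell by 1.6 and Mrc1, the mannose receptor, by 1.44 on the log2 scale. Dab2, an endocytic adaptor, was at 353, 440.4 and 249.6 against 1845, 1102 and 1777 CPM (log2 fold change -2.18 ± 0.21 SE, adjusted p = 3.82e-07). Log2 fold changes moved without CD11c+ library 2 to -4.36 for Folr2.

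Lyve1 and Igf1 belonged to the 4 resident genes that were not called. Lyve1, a hyaluronan receptor, was at 29.8, 382 and 25.3 CPM in MHCII+CD11c+ and 695, 1131 and 729.5 CPM in MHCII+CD11c- libraries (log2 fold change -2.54 ± 0.85 SE, adjusted p = 0.0999). Igf1, a growth factor, was at 33, 314 and 21.6 against 426, 523 and 398 CPM (log2 fold change -1.86 ± 0.75 SE, adjusted p = 0.175). In both genes library 2 of MHCII+CD11c+ was far above libraries 1 and 3, and yet below every MHCII+CD11c- library. Without both libraries numbered 2, the values were -4.67 (adjusted p = 9.82e-08) for Lyve1 and -3.89 (adjusted p = 2.12e-09) for Igf1. A call was gained in the case of Lyve1 without CD11c+ library 2 (adjusted p = 2.49e-07) and of Igf1 without CD11c+ library 2 (adjusted p = 2.55e-09). Cfp, which encodes properdin, was at 538, 241 and 425 against 679, 242 and 615 CPM (adjusted p = 0.795), and Tslp was close to the floor in MHCII+CD11c+ libraries (0.851, 2.41 and 0 against 11.9, 8.31 and 9.03 CPM, adjusted p = 0.115). Of 11 lining macrophage genes tested, 1 was lower, Timd4, and none (0 by edgeR, 0 by DESeq2) was higher. Cx3cr1, the fractalkine receptor, was at 37, 73.9 and 14.7 against 58, 150.2 and 92.6 CPM (adjusted p = 0.374), both below the 435, 333 and 528 CPM of the LYVE1+CX3CR1+ controls. Vsig4, a complement receptor, was at 1.06, 81.2 and 0 against 29, 306 and 22.4 CPM (adjusted p = 0.507).

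**Figure D3:**
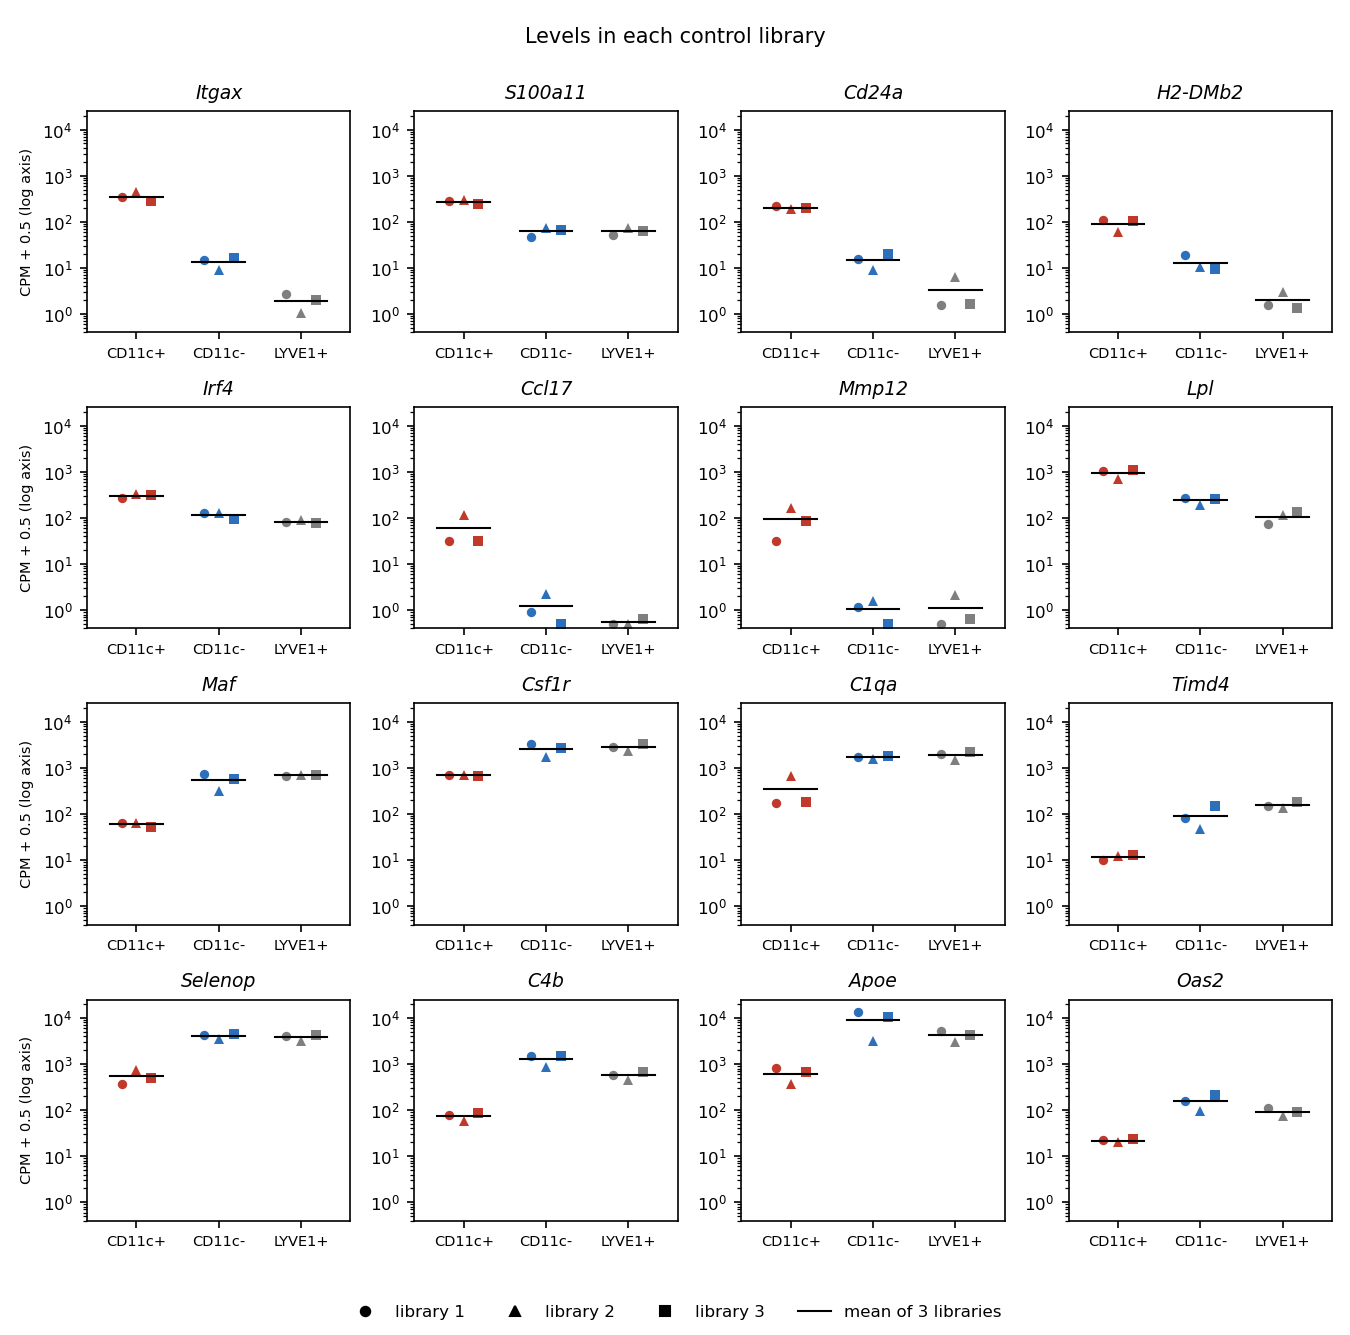
Level of 16 genes in each control library, as CPM + 0.5 on a log axis, for MHCII+CD11c+ (red), MHCII+CD11c- (blue) and LYVE1+CX3CR1+ (grey) macrophages; marker shapes give the library number and the bar is the mean of 3 libraries. Itgax, S100a11, Cd24a, H2-DMb2, Irf4, Ccl17, Mmp12 and Lpl are higher in each MHCII+CD11c+ library than in any MHCII+CD11c- library, and the remaining 8 genes are lower in each.

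Promoters of the lower genes were read for the letters TGCTGA, the core of the element that MAF proteins bind, on both strands of a window from 250 bases before to 50 bases after the start of each RefSeq gene. Of the genes tested, 10441 had a window. The letters stood in 19.5% of 32851 windows, and in 18.6% of genes tested, 25.5% of the 580 lower genes with a window and 21.5% of the 432 higher genes. These matches can overlap AP-1 sites (TGANTCA), which stood in 6.4% of genes tested, 10.3% of the lower and 10.4% of the higher genes. The ETS site GAGGAAG, bound by factors such as PU.1, stood in 13.6% of windows, 16.5% of genes tested, 18.4% of the lower and 20.1% of the higher genes. Of the 12 lower genes with the smallest p, 9 had a window and 2, Cmah and Dab2, held TGCTGA before the start. Both are shown because they are among those 12, with the match in capitals. The sequences are the 250 bases before the start on GRCm38.p6, at chr13:24414872-24415121 (plus strand) for Cmah and chr15:6299539-6299788 (plus strand) for Dab2. The match begins 103 bases before the start of Cmah, on the minus strand, and 100 bases before the start of Dab2, on the plus strand. A match is a run of letters and was not tested as a binding site.
Cmah: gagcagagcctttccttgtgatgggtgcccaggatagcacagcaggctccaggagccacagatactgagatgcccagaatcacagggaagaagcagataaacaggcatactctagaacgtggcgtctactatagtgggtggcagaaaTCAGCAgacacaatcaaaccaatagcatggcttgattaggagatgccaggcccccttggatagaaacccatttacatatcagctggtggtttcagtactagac
Dab2: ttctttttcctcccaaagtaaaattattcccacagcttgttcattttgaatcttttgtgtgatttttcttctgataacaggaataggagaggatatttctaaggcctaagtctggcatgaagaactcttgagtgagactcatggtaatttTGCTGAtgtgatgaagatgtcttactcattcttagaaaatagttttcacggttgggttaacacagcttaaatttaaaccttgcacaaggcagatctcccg

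Transcription factors of identity changed in both directions, with 8 of 42 tested higher, 8 lower and a median of -0.03. Irf4, a factor of antigen-presenting cells, was at 269, 329 and 312 CPM in MHCII+CD11c+ and 127, 130.2 and 96 CPM in MHCII+CD11c- libraries (log2 fold change 1.36 ± 0.23 SE, adjusted p = 0.00032). Runx3, which acts with TGF-beta signals in leukocytes, was at 84.9, 67.1 and 84.7 against 17.9, 7.6 and 12 CPM (log2 fold change 2.66 ± 0.43 SE, adjusted p = 0.000187). Etv3, an ETS-family repressor, was at 1066, 741 and 1440.5 against 382, 327 and 400.2 CPM (log2 fold change 1.55 ± 0.25 SE, adjusted p = 0.000324). For all 3 factors, no MHCII+CD11c- library reached the lowest MHCII+CD11c+ library. The nuclear receptors Nr4a2 (1.78 ± 0.25) and Nr4a3 (1.90 ± 0.32), the NF-kB subunit Rel (1.07 ± 0.19), Irf5 (0.82 ± 0.16) and Id2 (1.37 ± 0.30) were also higher. On the lower side, beside Maf, stood Klf2 (-0.75 ± 0.15), Tcf4 (-1.14 ± 0.25), Mef2c (-1.38 ± 0.27), Mef2a (-0.77 ± 0.21), Bhlhe41 (-3.40 ± 1.01) and Irf8 (-1.15 ± 0.35). Zeb2 was at 931, 806 and 905 against 1176, 999 and 976 CPM and was not called (adjusted p = 0.339). With 1 library left out, the test no longer passed in the case of Irf8 without CD11c+ library 1 or 3 or CD11c- library 1, 2 or 3 (adjusted p 0.0737 to 0.138), of Bhlhe41 without CD11c+ library 1 or 3 or CD11c- library 1, 2 or 3 (adjusted p 0.0554 to 0.135) and of Mef2a without CD11c+ library 1 or 3 or CD11c- library 2 (adjusted p 0.0727 to 0.14). On omission of 1 library, the log2 fold change shifted without CD11c+ library 2 to -8.17 for Bhlhe41, and without CD11c- library 2 to 2.01 for Id2.

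Of 24 dendritic cell genes tested, 7 were higher (Irf4, Tnip3, Wdfy4, Dpp4, Ccl17, Ccl22 and Septin3) and 1, Irf8, was lower, with a median of 1.45 (1.4 with genes at the floor set to their bound). Tnip3, an inhibitor of NF-kB signalling, was at 504, 468 and 605 CPM in MHCII+CD11c+ and 41.6, 83.2 and 66.5 CPM in MHCII+CD11c- libraries (log2 fold change 3.04 ± 0.46 SE, adjusted p = 0.000787). Wdfy4, needed for cross-presentation, was at 424, 246 and 389.5 against 182, 139 and 174 CPM (log2 fold change 1.09 ± 0.24 SE, adjusted p = 0.00358). Dpp4, the peptidase CD26, was at 74.2, 36.4 and 97.6 against 17.3, 4.59 and 20.1 CPM (log2 fold change 2.32 ± 0.58 SE, adjusted p = 0.0147). Several defining markers of dendritic cells were not called. Flt3, the receptor on which dendritic cells depend, was at 54, 16.2 and 40.1 against 15.8, 6.36 and 18.7 CPM (adjusted p = 0.118). Zbtb46, a factor of conventional dendritic cells, was at 44.5, 39 and 42.7 against 26, 11.5 and 36.4 CPM (adjusted p = 0.214). Ccr7, the receptor that guides cells to lymph nodes, was at 21.1, 26.6 and 50.7 against 2.77, 1.41 and 16.4 CPM (adjusted p = 0.0726), and Cd209a at 452, 135 and 351 against 115, 71.4 and 154 CPM (adjusted p = 0.0902). Summed over the list, levels ran from 1667 to 2279 CPM in MHCII+CD11c+ and 605 to 817 CPM in MHCII+CD11c- libraries, and the part of dendritic cells in the other differences was not tested. The call was lost in the case of Dpp4 without CD11c+ library 3 (adjusted p = 0.0685). A call was gained in the case of Flt3 without CD11c+ library 2 (adjusted p = 0.0455), of Ccr7 without CD11c- library 3 (adjusted p = 0.00127) and of Cd209a without CD11c+ library 2 (adjusted p = 0.00875). Single libraries moved the log2 fold change, without CD11c- library 1 to 5.56 for Septin3.

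Among genes induced by IL-4 and IL-13, 5 of 20 were higher and 3 were lower. The median was 1.03, or 0.44 with genes at the floor set to their bound, and without both libraries numbered 2 it was 0.38. Ccl17, a ligand of CCR4, was at 31.3, 117 and 30.3 CPM in MHCII+CD11c+ and 0.427, 1.77 and 0 CPM in MHCII+CD11c- libraries (log2 fold change 6.10 ± 1.12 SE, adjusted p = 0.00332). Ccl22, the other ligand of CCR4, was at 107, 36.6 and 55.6 against 2.56, 0.353 and 8.02 CPM (log2 fold change 4.34 ± 0.92 SE, adjusted p = 0.0146). Mmp12, the macrophage elastase, was at 30.6, 159.9 and 85.1 against 0.64, 1.06 and 0 CPM (log2 fold change 7.09 ± 0.98 SE, adjusted p = 0.000206). In all 3 genes the MHCII+CD11c- libraries held at most 8.02 CPM, so the fitted folds rest on few counts there. Cish (2.71 ± 0.56) and Cd200r1 (1.39 ± 0.29) were higher as well. Mrc1, Ccl24 (-2.36 ± 0.34) and Il4ra, the IL-4 receptor chain (-0.77 ± 0.21), were lower. Retnla, which encodes FIZZ1, was at 1332, 3263 and 1567 against 2117, 3493 and 1884 CPM and was not called (adjusted p = 0.826). Leaving out 1 library ended the call of Ccl22 without CD11c- library 1 (adjusted p = 0.0774) and of Il4ra without CD11c+ library 2 or CD11c- library 1 or 3 (adjusted p 0.0804 to 0.143). Log2 fold changes moved without CD11c+ library 2 to 6.42 for Mmp12 and 5.14 for Ccl17, and without CD11c- library 2 to 7.82 for Mmp12, 7.72 for Ccl17 and 3.71 for Ccl22, and without CD11c- library 3 to 5.56 for Ccl22.

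Dcstamp, a membrane protein needed for fusion of osteoclasts and giant cells, was at 93.8, 86.7 and 109 CPM in MHCII+CD11c+ and 1.07, 1.59 and 2.34 CPM in MHCII+CD11c- libraries (log2 fold change 5.88 ± 0.77 SE, adjusted p = 0.000102). It was one of the 6 higher genes with the largest change among those with at least 20 CPM in the higher group, with Mmp12, Ccl17, Klri1, Itgax and Flnc. Klri1, a lectin-like receptor, was at 29.1, 15.6 and 21.6 against 0, 0 and 1.67 CPM, and Flnc, an actin crosslinker, at 39.1, 67.2 and 21.9 against 0.427, 3.71 and 0.334 CPM. On the lower side the largest changes were those of Cd209g (-5.26 ± 0.86), Samd4 (-5.11 ± 0.85), BC106175 (-5.09 ± 1.38), Cd38 (-4.45 ± 1.15), Npr1 (-4.44 ± 0.91) and C5ar2 (-4.36 ± 0.57). C5ar2, the second receptor for C5a, was at 0.851, 3.53 and 3.4 against 45.2, 28.1 and 85.3 CPM, with no overlap. Cd38, a NAD-consuming enzyme, was at 7.44, 0 and 0 against 67.4, 14.3 and 95.6 CPM. BC106175 was not called without both libraries numbered 2 (adjusted p = 0.0624). With 1 library omitted, significance was lost in the case of BC106175 without CD11c+ library 1 or 2 or CD11c- library 1 or 3 (adjusted p 0.061 to 0.107) and of Cd38 without CD11c+ library 2 or 3 or CD11c- library 1 or 3 (adjusted p 0.0599 to 0.0914). On omission of 1 library, the log2 fold change shifted without CD11c+ library 1 to -11.06 for Cd38 and -3.85 for Npr1, and without CD11c+ library 2 to -7.20 for Samd4 and -9.64 for Npr1, and without CD11c+ library 3 to -5.85 for Cd209g and -7.31 for BC106175, and without CD11c- library 1 to 4.95 for Klri1, and without CD11c- library 2 to 4.85 for Klri1 and 6.69 for Flnc, and without CD11c- library 3 to 9.70 for Klri1.

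Of 40 genes of the actin skeleton, 14 were higher in MHCII+CD11c+ macrophages and 1 was lower, with a median of 0.42 and 32 positive values. Lsp1, an actin-binding protein of leukocytes, was at 1559.7, 801 and 1397 CPM in MHCII+CD11c+ and 356, 304 and 291 CPM in MHCII+CD11c- libraries (log2 fold change 1.98 ± 0.22 SE, adjusted p = 2.1e-06). Myo1g, a class I myosin of haematopoietic cells, was at 559, 585 and 666 against 190.5, 189 and 174 CPM (log2 fold change 1.71 ± 0.18 SE, adjusted p = 1.62e-06). Actg1, gamma-actin, was at 2030.0, 1553 and 1960.1 against 875, 899 and 700.5 CPM (log2 fold change 1.16 ± 0.18 SE, adjusted p = 0.000111). Tmsb4x (1.18 ± 0.18), which binds actin monomers, Coro1a (1.11 ± 0.24), Pfn1 (0.81 ± 0.17), Arpc2 (0.66 ± 0.15) and Actb (0.69 ± 0.16) were higher as well. The lower gene was Myo5a, a vesicle motor (log2 fold change -1.05 ± 0.16 SE, adjusted p = 0.00013). Of the 14, Arpc5, Dock2, Cdc42, Arhgdib, Vasp, Plxnd1 and Actb lost their call when 1 library was left out. Arhgdib was also not called without both libraries numbered 2 (adjusted p = 0.0527). With 1 library left out, the test no longer passed in the case of Arpc5 without CD11c+ library 2 or 3 or CD11c- library 1 or 3 (adjusted p 0.0623 to 0.0831), of Dock2 without CD11c+ library 1 or 3 or CD11c- library 2 or 3 (adjusted p 0.0751 to 0.135), of Cdc42 without CD11c+ library 1 or CD11c- library 1 or 3 (adjusted p 0.0608 to 0.125), of Arhgdib without CD11c+ library 1 or CD11c- library 1, 2 or 3 (adjusted p 0.0648 to 0.198), of Vasp without CD11c+ library 3 or CD11c- library 3 (adjusted p 0.0556 to 0.0671), of Plxnd1 without CD11c+ library 1 or 3 or CD11c- library 2 or 3 (adjusted p 0.0614 to 0.152) and of Actb without CD11c+ library 1 (adjusted p = 0.0538).

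Of 25 integrin and adhesion genes, 5 were higher and 1 was lower, with a median of 0.21. Beside Itgax, the higher genes were Itgb7, Itga4, Itgal and Cd44. Itgb7, the beta chain of the gut-homing integrin, was at 195, 108 and 214 CPM in MHCII+CD11c+ and 47.1, 21.2 and 34.8 CPM in MHCII+CD11c- libraries (log2 fold change 2.32 ± 0.30 SE, adjusted p = 1.55e-05). Its partner Itga4 was at 578, 358 and 523 against 321, 220.0 and 234 CPM (log2 fold change 0.91 ± 0.20 SE, adjusted p = 0.0046). Cd44, a hyaluronan receptor, was at 1678, 1851 and 1272 against 380.1, 847 and 345 CPM (log2 fold change 1.61 ± 0.28 SE, adjusted p = 0.00128). Itgal, the alpha chain of LFA-1, was at 100.4, 57 and 87.4 against 23, 10.1 and 13.4 CPM (log2 fold change 2.39 ± 0.54 SE, adjusted p = 0.00819). Itgb2, the chain that pairs with CD11c, was at 819, 1181 and 669.8 against 559, 1048 and 354 CPM and was not called (adjusted p = 0.516), nor was Itgam, the gene of CD11b (-0.15 ± 0.18, adjusted p = 0.715). Itga9 was lower (log2 fold change -3.29 ± 0.79 SE, adjusted p = 0.0234), at 1.7, 21 and 0.756 against 63.1, 99.7 and 87.3 CPM. The call was lost in the case of Itga9 without CD11c+ library 1 or CD11c- library 3 (adjusted p 0.0608 to 0.0614). By contrast, a call appeared in the case of Itgb2 without CD11c- library 2 (adjusted p = 0.0333). Single libraries moved the log2 fold change, without CD11c+ library 2 to -5.93 for Itga9.

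Monocyte and migratory-cell genes were higher in 7 of 22 cases and lower in none (0 by edgeR, 0 by DESeq2), with a median of 1.1. S100a11, a calcium-binding protein, was at 279.7, 292 and 239 CPM in MHCII+CD11c+ and 47.1, 71.6 and 65.5 CPM in MHCII+CD11c- libraries (log2 fold change 2.14 ± 0.22 SE, adjusted p = 1.3e-06), the smallest p of all higher genes. Tmsb10 was at 246, 203 and 284 against 68.9, 89.1 and 69.5 CPM (log2 fold change 1.69 ± 0.24 SE, adjusted p = 4.8e-05), and Lgals3, galectin-3, at 558, 816 and 527 against 151, 378 and 139 CPM (log2 fold change 1.51 ± 0.35 SE, adjusted p = 0.0134). S100a10 (1.32 ± 0.34), Crip1 (1.06 ± 0.29) and Napsa (1.96 ± 0.53) were higher as well. Cytip, which binds a guanine exchange factor of integrin signalling, was at 501, 333 and 585 against 58.4, 48.2 and 48.8 CPM (log2 fold change 3.19 ± 0.72 SE, adjusted p = 0.0165). Markers of the blood monocyte itself were not called. Ccr2, the receptor for CCL2, was at 1152, 547 and 887 against 481, 224 and 360.1 CPM, with no overlap (adjusted p = 0.117). Ly6c2 was at 1.91, 0 and 1.51 against 5.12, 0.177 and 4.01 CPM and Plac8 at 9.15, 1.86 and 10.2 against 16.8, 3.18 and 16.4 CPM (adjusted p = 0.683 and 0.719). Without both libraries numbered 2, 11 of the 22 were higher. Leaving out 1 library ended the call of Cytip without CD11c- library 1 or 3 (adjusted p 0.0638 to 0.0711), of Crip1 without CD11c+ library 2 or CD11c- library 1 or 3 (adjusted p 0.0823 to 0.0954), of Napsa without CD11c+ library 1 or CD11c- library 2 or 3 (adjusted p 0.0703 to 0.172) and of S100a10 without CD11c+ library 2 or CD11c- library 1 or 3 (adjusted p 0.062 to 0.0792). Log2 fold changes moved without CD11c- library 2 to 2.13 for Lgals3.

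The other higher genes with the smallest p were Gm2a, Rin3, Pfkp, Glipr2, Cd24a, Septin11, Wnt11 and Trerf1. Cd24a, a sialoglycoprotein of immature leukocytes, was at 218, 184 and 198 CPM in MHCII+CD11c+ and 15.4, 8.48 and 19.4 CPM in MHCII+CD11c- libraries (log2 fold change 3.82 ± 0.43 SE, adjusted p = 9.33e-06). Wnt11, a secreted WNT ligand, was at 158, 105 and 219 against 23.5, 18.6 and 18.4 CPM (log2 fold change 2.99 ± 0.35 SE, adjusted p = 9.33e-06). Glipr2 was at 174, 199 and 145 against 15.6, 36.2 and 14.4 CPM (log2 fold change 2.95 ± 0.35 SE, adjusted p = 8.02e-06). Pfkp, a phosphofructokinase of glycolysis, was at 471, 636 and 542 against 129, 230.1 and 137 CPM (log2 fold change 1.73 ± 0.21 SE, adjusted p = 8.02e-06). Gm2a, the activator of ganglioside breakdown in lysosomes, rose by 1.81 ± 0.20, Rin3 by 1.98 ± 0.24, Septin11 by 1.43 ± 0.18 and Trerf1 by 1.85 ± 0.23. None of these calls was lost when any of the 6 libraries was left out. Of the lower genes with the smallest p, Fcgrt, the neonatal Fc receptor that recycles IgG, was at 116, 91.4 and 82.8 against 716, 437 and 656 CPM (log2 fold change -2.64 ± 0.20 SE, adjusted p = 6.88e-09). Ninj1, which ruptures the membrane of dying cells, was at 55.3, 85.8 and 49.9 against 446, 275 and 341 CPM (log2 fold change -2.47 ± 0.21 SE, adjusted p = 7.37e-08). Glul, glutamine synthetase, fell by 1.87, the vitamin B12 carrier Tcn2 by 2.54, the ubiquitin ligase Wwp1 by 2.68, Serinc3 by 1.89, Rgl1 by 2.06 and Ifi207 by 2.17 on the log2 scale.

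Costimulatory and checkpoint genes were higher in 4 of 19 tested and lower in 1. Icosl, the ligand of ICOS on T cells, was at 104, 65.4 and 148 CPM in MHCII+CD11c+ and 33.7, 32.9 and 48.8 CPM in MHCII+CD11c- libraries (log2 fold change 1.46 ± 0.27 SE, adjusted p = 0.000852). Slamf9 was at 132, 119 and 134 against 40.3, 63.3 and 58.8 CPM and Cd80, a ligand of CD28, at 25.1, 45.5 and 36.7 against 15.6, 12.4 and 13 CPM (log2 fold change 1.39 ± 0.42 SE, adjusted p = 0.0393). Cd52 (2.21 ± 0.57) was higher too, and Lgals9, the gene of galectin-9, was lower (-0.93 ± 0.24). Cd86, the other CD28 ligand, was at 152, 149 and 178 against 129, 147 and 163 CPM and was not called (adjusted p = 0.817). Among cytokine and inflammasome genes, 3 of 21 were higher and none (0 by edgeR, 0 by DESeq2) was lower. Il6 was at 154, 144 and 239 against 13.9, 31.5 and 18.1 CPM (log2 fold change 3.07 ± 0.58 SE, adjusted p = 0.00358), with all MHCII+CD11c+ libraries above all others. Il1rn, the antagonist of the IL-1 receptor, was at 207, 148 and 299 against 51, 96.1 and 76.2 CPM (log2 fold change 1.55 ± 0.43 SE, adjusted p = 0.0394). Tnfaip3, which encodes the NF-kB inhibitor A20, was higher by 1.25 ± 0.31. Il1b was at 564, 763 and 659.9 against 115, 365 and 114 CPM with no overlap but was not called (adjusted p = 0.174), and Tnf was at 199, 288 and 222 against 197, 325 and 144 CPM (adjusted p = 0.892). With 1 library omitted, significance was lost in the case of Cd80 without CD11c+ library 2 or 3 or CD11c- library 1, 2 or 3 (adjusted p 0.0814 to 0.126), of Slamf9 without CD11c+ library 1 or 3 or CD11c- library 1 (adjusted p 0.0504 to 0.0867), of Il1rn without CD11c+ library 1 or 3 or CD11c- library 1 or 3 (adjusted p 0.0774 to 0.14), of Tnfaip3 without CD11c+ library 2 (adjusted p = 0.0509), of Lgals9 without CD11c+ library 3 or CD11c- library 1 (adjusted p 0.0784 to 0.15) and of Cd52 without CD11c+ library 1 or 3 or CD11c- library 1 or 2 (adjusted p 0.0584 to 0.106). On omission of 1 library, the log2 fold change shifted without CD11c- library 2 to 1.96 for Tnfaip3. Cd80 and Cd52 were not called without both libraries numbered 2 (adjusted p = 0.212 and 0.0887).

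Chemokines were split, with 3 of 23 higher and 6 lower. Ccl17, Ccl22 and Ccl5 (3.17 ± 0.89) were higher. Ccl5 was not called without both libraries numbered 2 (adjusted p = 0.0605). Ccl8, a monocyte attractant, was at 4.89, 11.3 and 9.45 CPM in MHCII+CD11c+ and 144, 158 and 185 CPM in MHCII+CD11c- libraries (log2 fold change -4.24 ± 0.55 SE, adjusted p = 0.000176), and at 32.4, 18.1 and 22.9 CPM in the LYVE1+CX3CR1+ controls. Ccl24, an eosinophil attractant, was at 34.2, 45.7 and 50.7 against 232, 126 and 310.3 CPM (log2 fold change -2.36 ± 0.34 SE, adjusted p = 0.000182). Ccl7 was at 31.9, 107 and 69.6 against 176, 249 and 237 CPM (log2 fold change -1.67 ± 0.30 SE, adjusted p = 0.00124). The platelet factor Pf4 (-2.40 ± 0.42), Ccl12 (-2.26 ± 0.48) and Cxcl12 (-2.98 ± 0.69) were lower as well. Of 24 receptors for chemokines and other attractants, 1 was higher and 5 were lower. Ltb4r1, the receptor for leukotriene B4, was at 63.6, 29.7 and 55.2 against 11.3, 4.06 and 8.02 CPM (log2 fold change 2.67 ± 0.52 SE, adjusted p = 0.00177). C5ar1, the receptor for C5a, was at 32.5, 70 and 26.1 against 247, 194 and 347 CPM (log2 fold change -2.60 ± 0.29 SE, adjusted p = 7.1e-06). Cmklr1, the chemerin receptor, was at 45.7, 86.7 and 62.8 against 305, 194 and 365 CPM (log2 fold change -2.14 ± 0.26 SE, adjusted p = 1.17e-05). The purine receptors P2ry12 (-3.01 ± 0.47) and P2ry13 (-2.14 ± 0.46) and the sphingosine phosphate receptor S1pr1 (-2.64 ± 0.74) were lower. With 1 library left out, the test no longer passed in the case of Ccl5 without CD11c+ library 2 or 3 or CD11c- library 1 or 3 (adjusted p 0.0584 to 0.125), of Ccl12 without CD11c- library 3 (adjusted p = 0.0625), of Cxcl12 without CD11c- library 3 (adjusted p = 0.0711) and of S1pr1 without CD11c+ library 1 or CD11c- library 1, 2 or 3 (adjusted p 0.0769 to 0.133). Single libraries moved the log2 fold change, without CD11c+ library 2 to -3.20 for Pf4, -4.84 for S1pr1 and -3.74 for P2ry12, and without CD11c+ library 3 to -3.05 for P2ry13, and without CD11c- library 2 to 4.24 for Ccl5.

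Uptake of particles and soluble material runs through endocytic and scavenger receptors. Of 23 endocytic and scavenger receptors tested, 7 were lower and 1, Lrp12, was higher. Cd209f, a C-type lectin, was at 17.4, 12.3 and 50.7 CPM in MHCII+CD11c+ and 591, 155 and 620.2 CPM in MHCII+CD11c- libraries (log2 fold change -4.13 ± 0.79 SE, adjusted p = 0.00652), and Cd209b at 6.17, 2.23 and 21.2 against 133, 54.4 and 151 CPM (log2 fold change -3.60 ± 0.65 SE, adjusted p = 0.00213). Reads of these Cd209 genes, which are near copies of each other, may be split or shared by the counting. Stab1 was at 83.8, 287 and 149 against 1394, 1008 and 1538 CPM (log2 fold change -2.92 ± 0.44 SE, adjusted p = 0.00105). Colec12 fell by 1.94 on the log2 scale, and Lrp12 was at 55.9, 59.1 and 48.8 against 29.4, 36.9 and 13.7 CPM. Clec10a, a galactose lectin, was at 131, 64.8 and 169.8 against 625, 240.3 and 642 CPM with no overlap and was not called (adjusted p = 0.112). Its close relative Mgl2 was at 662, 527 and 647 against 689.5, 466 and 762 CPM (adjusted p = 0.946). Lrp1 was at 1926, 1951 and 1666 against 1754, 2393 and 1468 CPM (adjusted p = 0.981). Of 21 genes for uptake of apoptotic cells, 9 were lower, among them Mertk, Gas6, Timd4, Stab1 and Pros1 (-0.77 ± 0.19), and none (0 by edgeR, 0 by DESeq2) was higher, with a median of -1.22. Of these 9, Mertk, Gas6, Timd4, Stab1, C1qa, C1qb and C1qc are also counted in other lists. Of 8 Fc receptor genes, Fcgr1 and Fcgrt were lower. Fcgr3 (-0.38 ± 0.16, adjusted p = 0.156) and the signalling chain Fcer1g (-0.06 ± 0.18, adjusted p = 0.905) were not called. The call was lost in the case of Lrp12 without CD11c+ library 1 or 2 or CD11c- library 1 or 3 (adjusted p 0.0608 to 0.149), of Colec12 without CD11c+ library 3 or CD11c- library 1 or 3 (adjusted p 0.0578 to 0.0812) and of Pros1 without CD11c- library 1 or 3 (adjusted p 0.0618 to 0.0899). Log2 fold changes moved without CD11c+ library 2 to -2.64 for Colec12, and without CD11c+ library 3 to -4.75 for Cd209b and -4.94 for Cd209f.

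Of 15 complement genes tested, 6 were lower and none (0 by edgeR, 0 by DESeq2) was higher, with a median of -2.09. C4b was at 76.8, 58.5 and 85.8 CPM in MHCII+CD11c+ and 1469, 847 and 1508 CPM in MHCII+CD11c- libraries (log2 fold change -4.11 ± 0.41 SE, adjusted p = 1.77e-05), with LYVE1+CX3CR1+ controls at 579, 457 and 665 CPM. C1qa, the A chain of C1q, was at 173, 667 and 186 against 1719.9, 1576 and 1786 CPM (log2 fold change -2.31 ± 0.48 SE, adjusted p = 0.00991). C1qb (-2.09 ± 0.35) and C1qc (-2.27 ± 0.53), its other chains, were also highest in library 2 among the MHCII+CD11c+ libraries, at 698 and 705 CPM. Of 19 toll-like receptor and adaptor genes, 5 were lower and none (0 by edgeR, 2 by DESeq2) was higher. Tlr5, which senses flagellin, was at 8.3, 1.11 and 5.29 against 76.4, 32.3 and 73.9 CPM (log2 fold change -3.65 ± 0.59 SE, adjusted p = 0.000405). Tlr7, which senses single-stranded RNA, was at 29.1, 36 and 5.29 against 135, 87.7 and 159 CPM (log2 fold change -2.39 ± 0.42 SE, adjusted p = 0.00168). Tlr8 (-1.20 ± 0.26), Tlr4 (-1.16 ± 0.31) and the chaperone Unc93b1 (-0.89 ± 0.21) were lower too, while Tlr2 (0.12 ± 0.31, adjusted p = 0.88) and Tlr9 (-0.26 ± 0.33, adjusted p = 0.721) were not called. Leaving out 1 library ended the call of C1qc without CD11c- library 1 or 3 (adjusted p 0.0502 to 0.0533), of Tlr4 without CD11c+ library 1 or 3 or CD11c- library 1 or 3 (adjusted p 0.064 to 0.102) and of Unc93b1 without CD11c- library 1 or 3 (adjusted p 0.0589 to 0.086). On omission of 1 library, the log2 fold change shifted without CD11c+ library 1 to -4.40 for Tlr5, and without CD11c+ library 2 to -3.24 for C1qa, -2.82 for C1qb, -3.44 for C1qc and -1.85 for Tlr4.

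Interferon-stimulated genes encode antiviral sensors and effectors, and in these untreated mice the genes called were all lower in MHCII+CD11c+ macrophages. Of 27 genes tested, 24 had a negative log2 fold change, 11 were called lower and none (0 by edgeR, 0 by DESeq2) was higher, with a median of -1.2. The list summed to 926.9, 719.6 and 1071.8 CPM in MHCII+CD11c+ and 2503.7, 1237.4 and 2304 CPM in MHCII+CD11c- libraries. LYVE1+CX3CR1+ controls summed to 1208.1, 975.4 and 1079.6 CPM, below every MHCII+CD11c- library. Library 2 had the lowest sum of the MHCII+CD11c- libraries. Oas2, a sensor of double-stranded RNA, was at 21.5, 19.7 and 23.1 CPM in MHCII+CD11c+ and 157, 96.1 and 208 CPM in MHCII+CD11c- libraries (log2 fold change -2.84 ± 0.42 SE, adjusted p = 0.000286). Ifit3, an antiviral effector, was at 14.9, 4.09 and 15.9 against 92.3, 23.5 and 126 CPM (log2 fold change -2.82 ± 0.57 SE, adjusted p = 0.00527). Oasl2, a relative of the OAS enzymes, had no overlap of libraries either (log2 fold change -2.28 ± 0.34 SE, adjusted p = 0.000234). Ifi204, of the family that senses DNA, was at 51.3, 105 and 55.6 against 269, 209 and 292 CPM (log2 fold change -1.86 ± 0.25 SE, adjusted p = 1.83e-05). Irf7, the factor that amplifies interferon production, was at 23.6, 17.3 and 44.6 against 137, 59.4 and 117 CPM (log2 fold change -1.90 ± 0.37 SE, adjusted p = 0.00292), and Trim30a at 69.1, 50 and 65.4 against 181, 87.8 and 155 CPM (log2 fold change -1.20 ± 0.23 SE, adjusted p = 0.00155). Ifit2 (-1.89 ± 0.44), Bst2 (-1.47 ± 0.43), Cmpk2 (-2.30 ± 0.48) and Xaf1 (-1.75 ± 0.42) were the other lower genes. Ifit1 was called although its libraries overlapped, at 9.36, 8.73 and 11.3 against 63.1, 10.2 and 28.8 CPM (log2 fold change -1.80 ± 0.45 SE, adjusted p = 0.0114). Isg15, a ubiquitin-like protein, was at 20.4, 12.6 and 34 against 32.8, 17.5 and 43.5 CPM and was not called (adjusted p = 0.642). With 1 library omitted, significance was lost in the case of Ifit1 without CD11c+ library 1 or CD11c- library 1 (adjusted p 0.0536 to 0.234), of Ifit2 without CD11c+ library 1 or CD11c- library 1 (adjusted p 0.0568 to 0.068), of Bst2 without CD11c+ library 1 or 3 or CD11c- library 1 or 3 (adjusted p 0.0945 to 0.155), of Cmpk2 without CD11c- library 1 (adjusted p = 0.0656) and of Xaf1 without CD11c- library 1 (adjusted p = 0.0976).

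The run GAAA repeated after a gap of any 2 bases, the core of the element that interferon-activated factors bind, was searched on both strands of the same promoter windows. It stood in 3.44% of 32851 windows, 3.9% of genes tested, 6.9% of lower and 5.32% of higher genes. Of the 11 lower interferon-stimulated genes, 9 had a window and 4 held the run, Ifit1, Ifit3, Bst2 and Trim30a. Of the 16 that were not called, 12 had a window and 8 held it, Isg15 among them. Those 4 promoters and that of Isg15 are shown to let the matches be compared, as 250 bases before the start on GRCm38.p6 with each match in capitals. They lie at chr19:34640639-34640888 (Ifit1, plus strand), chr19:34583279-34583528 (Ifit3, plus strand), chr8:71537473-71537722 (Bst2, minus strand), chr7:104465194-104465443 (Trim30a, minus strand) and chr4:156200819-156201068 (Isg15, minus strand). Matches begin 104 and 85 bases before the start of Ifit1, 156 and 122 before Ifit3, 130 and 124 before Bst2, 36 before Trim30a, and 78, 72 and 66 before Isg15. In Bst2 and Isg15 the matches overlap each other.
Ifit1: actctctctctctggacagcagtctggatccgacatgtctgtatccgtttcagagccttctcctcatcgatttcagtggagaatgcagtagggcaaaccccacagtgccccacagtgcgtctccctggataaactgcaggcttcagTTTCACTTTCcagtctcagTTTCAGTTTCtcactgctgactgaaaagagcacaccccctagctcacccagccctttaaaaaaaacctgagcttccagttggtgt
Ifit3: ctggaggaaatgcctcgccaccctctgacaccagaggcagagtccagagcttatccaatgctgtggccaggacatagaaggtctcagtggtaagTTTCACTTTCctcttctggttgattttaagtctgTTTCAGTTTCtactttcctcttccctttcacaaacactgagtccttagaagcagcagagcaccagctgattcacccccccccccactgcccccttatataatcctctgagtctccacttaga
Bst2: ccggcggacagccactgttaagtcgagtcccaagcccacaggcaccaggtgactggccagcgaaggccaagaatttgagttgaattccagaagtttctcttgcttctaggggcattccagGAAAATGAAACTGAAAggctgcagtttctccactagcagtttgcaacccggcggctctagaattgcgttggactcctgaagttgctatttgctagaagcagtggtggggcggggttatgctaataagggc
Trim30a: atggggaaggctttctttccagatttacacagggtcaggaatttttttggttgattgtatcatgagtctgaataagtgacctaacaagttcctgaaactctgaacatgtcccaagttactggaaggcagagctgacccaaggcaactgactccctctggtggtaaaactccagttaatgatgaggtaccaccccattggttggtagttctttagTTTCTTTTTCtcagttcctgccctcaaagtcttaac
Isg15: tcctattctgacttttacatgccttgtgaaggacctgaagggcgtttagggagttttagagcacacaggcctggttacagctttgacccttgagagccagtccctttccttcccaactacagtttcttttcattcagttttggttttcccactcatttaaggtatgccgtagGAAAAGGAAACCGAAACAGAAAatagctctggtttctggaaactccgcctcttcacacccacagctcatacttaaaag

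Iron and heme genes were lower in 7 of 15 cases and higher in none (0 by edgeR, 1 by DESeq2). Hmox1, which breaks down heme, was at 232, 178 and 211 CPM in MHCII+CD11c+ and 637, 453 and 669 CPM in MHCII+CD11c- libraries (log2 fold change -1.50 ± 0.18 SE, adjusted p = 5.15e-06). Tfrc, the transferrin receptor, was at 41.9, 129 and 60.1 against 288, 364 and 308 CPM (log2 fold change -2.05 ± 0.30 SE, adjusted p = 0.000165), and Cp, ceruloplasmin, at 14.7, 9.85 and 1.89 against 117, 57.1 and 103 CPM (log2 fold change -3.32 ± 0.53 SE, adjusted p = 0.0009). The iron exporter Slc40a1 was at 2.77, 0.743 and 20.8 against 25, 6.72 and 10 CPM and was not called (adjusted p = 0.747). Lipid genes went both ways, with 2 of 19 higher and 3 lower. Apoe was at 810.4, 362 and 674 against 13469.9, 3235 and 10269.7 CPM (log2 fold change -3.87 ± 0.50 SE, adjusted p = 0.000398). Abca1, which exports cholesterol, was at 216, 377 and 220.1 against 1095, 799 and 1144 CPM (log2 fold change -1.90 ± 0.21 SE, adjusted p = 3e-06), whereas its relative Abcg1 was at 222, 179 and 185 against 94.5, 126 and 96 CPM (log2 fold change 0.89 ± 0.20 SE, adjusted p = 0.00536). Lpl, lipoprotein lipase, was at 1043, 698 and 1069 against 275, 190.5 and 258 CPM (log2 fold change 1.96 ± 0.34 SE, adjusted p = 0.00164). Pltp was lower (-0.99 ± 0.20), as were the iron genes Slc11a1 (-0.78 ± 0.22), Ftl1 (-0.71 ± 0.19), Blvrb (-1.78 ± 0.29) and Hpgd (-2.01 ± 0.42). With 1 library left out, the test no longer passed in the case of Slc11a1 without CD11c+ library 1 or 3 or CD11c- library 1 or 3 (adjusted p 0.0624 to 0.2) and of Ftl1 without CD11c+ library 1 or 3 or CD11c- library 1 or 3 (adjusted p 0.0578 to 0.093). Single libraries moved the log2 fold change, without CD11c+ library 2 to -2.66 for Tfrc.

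Growth factor and matrix genes were higher in 2 of 31 cases and lower in 5. Mmp19 was at 185, 259.9 and 152 CPM in MHCII+CD11c+ and 43.9, 27.7 and 22.7 CPM in MHCII+CD11c- libraries (log2 fold change 2.65 ± 0.52 SE, adjusted p = 0.00599). Nrp1, a co-receptor for semaphorins and VEGF, was at 117, 148 and 109 against 533, 318 and 443 CPM (log2 fold change -1.79 ± 0.20 SE, adjusted p = 3.14e-06). Vegfb (-1.64 ± 0.37), Hbegf (-1.85 ± 0.42), Bmp2 (-2.32 ± 0.53) and Plxnb2 (-0.86 ± 0.20) were also lower. Fn1, fibronectin, was at 9534, 12707 and 8274 against 1137, 9652 and 673 CPM and was not called (adjusted p = 0.418), with MHCII+CD11c- library 2 far above libraries 1 and 3. Without both libraries numbered 2, its value was 3.31 (adjusted p = 0.0223). Of 20 TGF-beta pathway genes, 1 was higher and 2 were lower. The receptor Tgfbr2 was at 110.4, 133 and 79 against 622, 394 and 569 CPM (log2 fold change -2.29 ± 0.24 SE, adjusted p = 1.95e-06), and the induced matrix protein Tgfbi at 983, 1132 and 795 against 1805, 1987 and 1452 CPM (log2 fold change -0.85 ± 0.19 SE, adjusted p = 0.0047). Acvrl1, a receptor of the same family, was higher (1.07 ± 0.26). The ligand Tgfb1 was at 342, 376 and 346 against 366, 373 and 369 CPM (adjusted p = 0.877). Ramp1, the part of the CGRP receptor that gives it its ligand, was at 85.1, 50.3 and 80.2 against 10.9, 14 and 24.1 CPM (log2 fold change 2.15 ± 0.53 SE, adjusted p = 0.0101), while its partner Calcrl was at 24, 32.7 and 23.8 against 46.1, 47.9 and 37.1 CPM and was not called (adjusted p = 0.201). The call was lost in the case of Ramp1 without CD11c+ library 1 or CD11c- library 1 (adjusted p 0.0513 to 0.0668), of Acvrl1 without CD11c- library 3 (adjusted p = 0.0676), of Hbegf without CD11c- library 3 (adjusted p = 0.0826), of Plxnb2 without CD11c- library 1 (adjusted p = 0.0638) and of Bmp2 without CD11c+ library 1 (adjusted p = 0.0562). By contrast, a call appeared in the case of Fn1 without CD11c- library 2 (adjusted p = 0.0108). Log2 fold changes moved without CD11c+ library 2 to -3.40 for Bmp2.

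All 24 cell cycle genes had a positive log2 fold change, with a median of 1.19, but edgeR called 1 (DESeq2 4). Mki67, which marks cycling cells, was at 362, 536 and 357 CPM in MHCII+CD11c+ and 163, 228 and 76.6 CPM in MHCII+CD11c- libraries (log2 fold change 1.42 ± 0.33 SE, adjusted p = 0.0115). Top2a, a topoisomerase of dividing cells, was at 154, 226 and 111 against 36.9, 68.4 and 15 CPM with no overlap and was not called (adjusted p = 0.0844). Of 25 immediate early and heat shock genes, 5 were lower and none (0 by edgeR, 1 by DESeq2) was higher. Jun was at 1521, 906 and 1193 against 3597, 2272 and 3417 CPM (log2 fold change -1.36 ± 0.18 SE, adjusted p = 2.35e-05) and Egr1 at 1623, 1318 and 1262 against 3832, 2983 and 4175 CPM (log2 fold change -1.39 ± 0.16 SE, adjusted p = 4.36e-06), and Ier3 (-1.01 ± 0.20), Dnajb1 (-0.94 ± 0.17) and Klf2 were the other lower genes. Such genes are known to respond to digestion and sorting, and this was not tested. Fos (-0.40 ± 0.16, adjusted p = 0.139), Atf3 (-0.30 ± 0.17, adjusted p = 0.34) and Hspa1a (-0.20 ± 0.18, adjusted p = 0.589) were not called. By contrast, a call appeared in the case of Top2a without CD11c- library 2 (adjusted p = 0.0416).

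**Figure D4:**
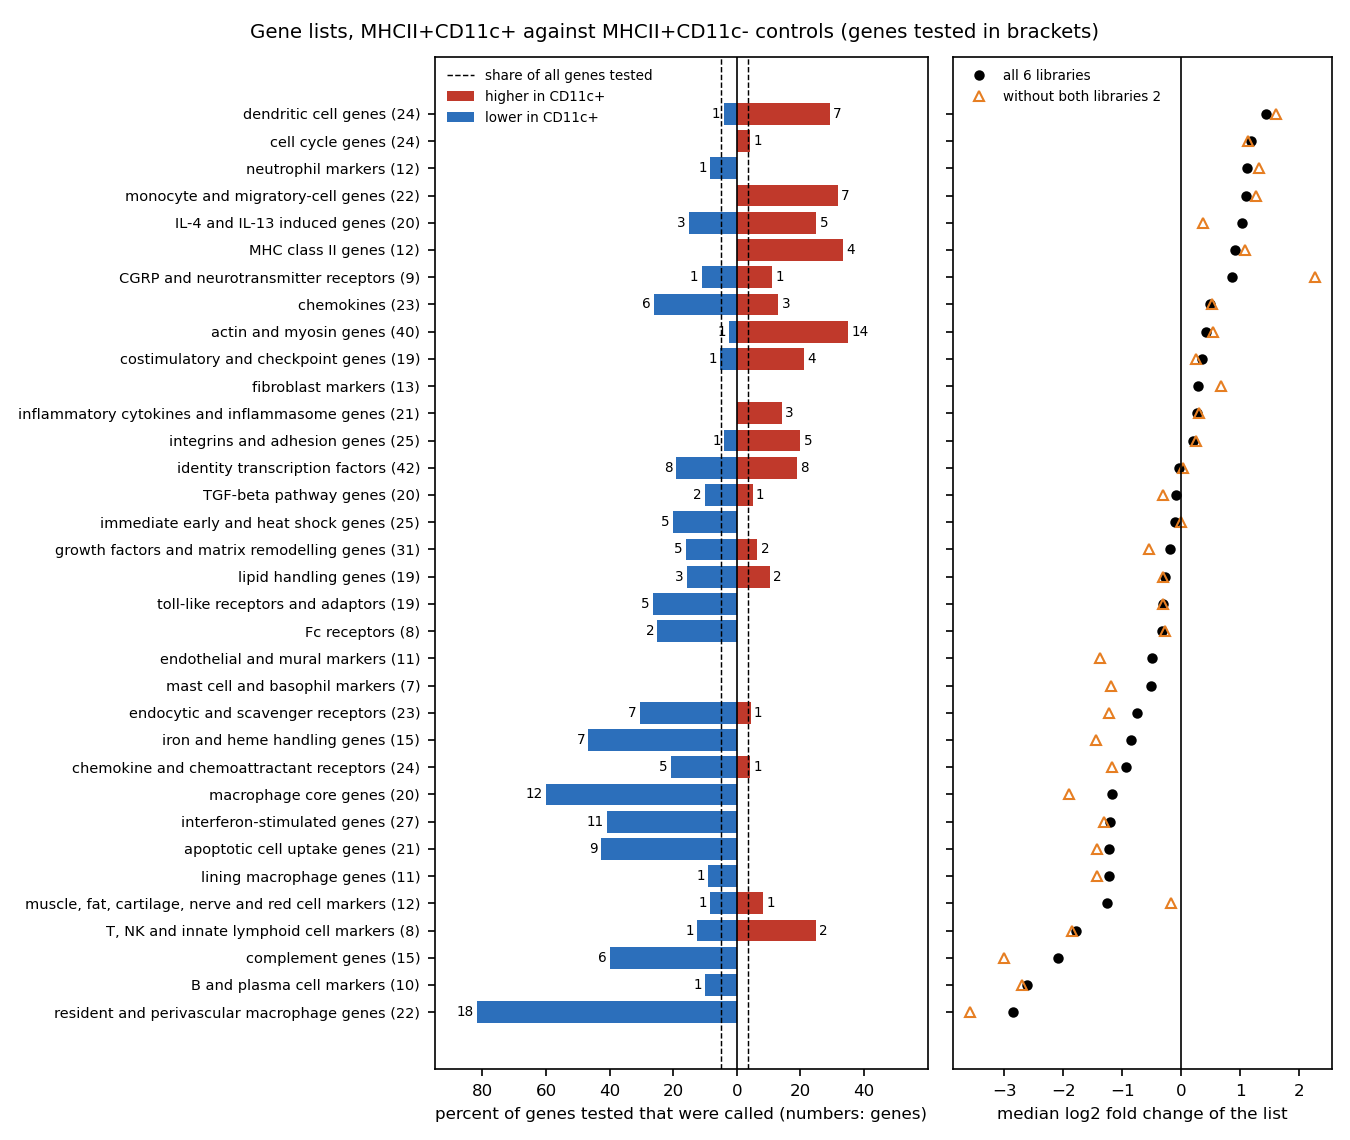
Left, the percent of genes tested in each of 34 lists that were called higher (red, to the right) or lower (blue, to the left) in control MHCII+CD11c+ macrophages, with the number of genes at each bar, the genes tested in brackets and dashed lines at the shares of all genes tested (3.67% and 4.99%). Right, the median log2 fold change of each list in all 6 libraries (dots) and without both libraries numbered 2 (triangles), from 1.45 for dendritic cell genes to -2.86 for resident and perivascular genes.

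The same subsets were also sorted 8 h after IC, as 2 MHCII+CD11c+ and 3 MHCII+CD11c- libraries that share no library with the controls. There, 616 of 15272 genes were called (4.03%), 349 higher (2.29%) and 267 lower (1.75%). That count fell to 349 without MHCII+CD11c+ library 1 after IC, to 145 without library 2 and to 389 without MHCII+CD11c- library 3. Each of the first pair of fits left 1 MHCII+CD11c+ library after IC, which was assumed to vary like the libraries of the other groups. Of the 616 genes, 472 were also called in controls, all 472 in the same direction. They made up 35.7% of the genes called in controls and 76.6% of those called after IC. Of the genes called in controls, 98.1% had the same sign after IC, against 69.1% of all genes tested. The median log2 fold change of the genes called higher in controls was 1.22 in controls and 1.01 after IC. That of the genes called lower in controls was -1.48 and -0.99. Because these genes were chosen by their control values, smaller medians in other libraries can arise without any change after IC. Itgax (5.23, adjusted p = 2.07e-05), Maf (-2.11, adjusted p = 1.91e-05), Cmah (-3.57, adjusted p = 1.14e-06), Selenop (-2.20, adjusted p = 4.85e-06), S100a11 (2.0, adjusted p = 1.91e-05) and Irf4 (1.83, adjusted p = 8.6e-05) kept their side. Flt3, which was not called in controls, was higher after IC (3.90, adjusted p = 0.000686), as were Ccr7 (5.41, adjusted p = 0.0024) and Zbtb46 (1.55, adjusted p = 0.0248). Apoe (-1.89, adjusted p = 0.0805) and C1qa (-1.49, adjusted p = 0.197) were called in controls and not after IC.

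The difference between the 2 contrasts was tested itself. No gene (0 of 15272) differed between controls and IC by edgeR, with 496 at an unadjusted p under 0.05, and DESeq2 called 2, Map3k6 and Ptp4a3. A gene called in 1 contrast and not in the other, such as Flt3 or Apoe, was therefore not shown to differ between them. Without MHCII+CD11c+ control library 2, 21 genes were called, among them Igf1, C1qb, C1qc, Ctsb and Ctsl. All of these 5 had a positive difference after leaving that library out, which means a smaller gap after IC than in controls. Of the 21, 20 were positive and 1, Map3k6, was negative (-2.05). That library was the highest MHCII+CD11c+ control for Igf1, C1qb and C1qc, so its omission itself widened their control gap. Their control log2 fold changes without it were -4.02, -2.82 and -3.44. Map3k6, Ptp4a3 and Ctsl were named after their values were seen.

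**Figure D5:**
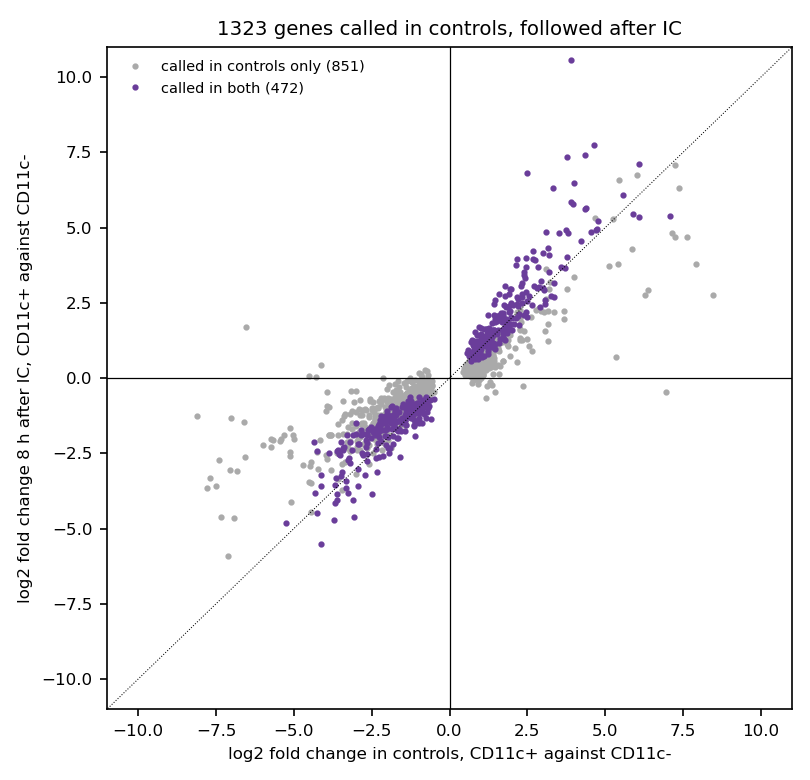
Log2 fold change of MHCII+CD11c+ against MHCII+CD11c- macrophages in controls (x axis) and 8 h after IC (y axis) for the 1323 genes called in controls; purple points (472) were called in both, grey points in controls only, and the dotted line marks equal values. Points lie in the lower left and upper right quadrants for 1298 of the 1323 genes.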

How the data were processed

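Bulk RNA-seq libraries of sorted synovial macrophages, made by the study with a SMARTer stranded total RNA kit, were deposited as whole-number read counts per gene. Per the labels and the study's methods, the authors trimmed reads with Trim Galore, checked them with FastQC, aligned them to mm10 with HISAT2 and counted them with featureCounts. Versions, annotation, strand setting and handling of reads with several matches are not given in the sources used here, so near-identical, overlapping and antisense genes are uncertain. The authors used DESeq2 and sva. The batch that sva corrected is not named.

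The deposited counts of 17 libraries in 6 groups held 22859 genes. Of these, 15272 passed filterByExpr with a minimum count of 10. 1 column with no matching sample, summing to 0, was not used. Group means were fitted with the edgeR 4.0.16 quasi-likelihood F test (R 4.3.3) after TMM scaling, over all 17 libraries, with 11 residual degrees of freedom and a biological coefficient of variation of 45.1%. Contrasts were adjusted by Benjamini-Hochberg over all genes tested and called under 0.05. SE is the absolute log2 fold change divided by the square root of F. Folds are ratios of mean CPM. Coordinates are GENCODE M21 on GRCm38 and promoters are RefSeq on GRCm38.p6. Promoter windows of Maf, Oas2 and H2-Ab1 were not used.

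Totals and the floor of 3 counts limit counting error only. On simulated data for the control comparison (14485 genes), 25 of 100 genes changed by 1 and 67 of 100 changed by 2 on the log2 scale were called, with 2 of 14285 unchanged genes. Changes were set only in genes above a minimum mean count. Each library was drawn independently, without a shift shared by libraries of the same number. Changes were set in only 200 genes, whereas 1323 were called in the data, and the adjusted p depends on the share of changed genes. These rates therefore do not carry over to genes with few counts, to such a shift or to a larger share of changed genes. None of the 6 pairs of libraries within a control MHCII+ subset agreed within sampling noise, and other pairs were not compared. Samples with the same number deviated together with r of 0.0986, 0.2864 and 0.07964. The labels name no pairing. The main fit has no term for the number, so a shift shared by a number is not removed.

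The genes named are members of 34 lists that define their list, were called or went against it, the 12 genes of each direction with the lowest p among those without overlap, and the 6 higher and 6 lower genes with the largest change, no overlap and at least 20 CPM in the higher group. A few genes that this rule names are not reported here. Members, lists and tests were chosen with earlier results of these data known. Alternatives were DESeq2 1.42.0, its size factors in edgeR, voom with limma 3.58.1, surrogate variables from sva 3.50.0, other filters, sets of libraries and thresholds, equal depth, a block on the replicate number and leaving out each library. Leaving out both control libraries numbered 2 was chosen after seeing the data.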

Additional observations from a re-analysis of the deposited data

How the results depend on the processing

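Against 1323 genes called, 561 higher and 762 lower, an adjusted p under 0.01 left 694, 260 and 434. DESeq2 and voom with sample quality weights gave 872 and 862 higher genes, surrogate variables 349, and a fit of only the 6 libraries 490 lower genes. Leaving out each library in turn gave 785 to 1450 genes, 302 to 681 higher and 460 to 902 lower, with the lowest counts without MHCII+CD11c- library 1 (803) or 3 (785). After IC, DESeq2 gave 1017 genes against 616, and leaving out each library 145 to 610, with a lone MHCII+CD11c+ library assumed to vary like the other groups. For the difference between contrasts, DESeq2 gave 2 genes against 0, and leaving out each library 0 to 21. DESeq2 size factors (1356 genes), equal depth (1366), a minimum count of 30 (1422), no filter (1252), the 9 control libraries (1609) and leaving out both libraries numbered 2 (1505, chosen after seeing the data) stayed within 1.5 times. The cause of these shifts was not tested.

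With the replicate number as a block, 1473 genes were called over 17 libraries and 1510 over the 6 libraries, 613 after IC and 0 for the difference. The fit of the 6 libraries without the block called 956. The main fit does not treat the numbers as a pairing, since the labels do not state one. Deviations from the subset mean had r of 0.0986, 0.2864 and 0.07964 between MHCII+ control libraries of the same number. In these deviations, each library correlated best with the library of its own number in the other MHCII+ subset. The levels themselves did not follow the number. MHCII+CD11c- library 3 had r of 0.7966 with MHCII+CD11c+ library 3 and 0.8367 with library 1. The pattern in the deviations is a hint from the data and not from the design. What the number stands for was not tested. The block cost 7 of the 179 named and called genes their call over the 17 libraries.

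Of the 179 called genes named, 99 kept their call in each of 18 alternatives and 80 lost it in at least 1. Surrogate variables ended 56 of these calls, the fit of the 6 libraries 33, and leaving out MHCII+CD11c- library 1 or 3 39 and 39. Of the 49 named genes that were not called, 21 were called in at least 1 alternative. No called gene reversed its direction in any alternative (0 of 3219 fits). Depth limits genes near the floor of 3 counts, where fitted folds are not bounds.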
